A study of Mus musculus with 4 samples.

Results

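Whole-genome bisulfite sequencing of microglia, the brain's resident immune cells, was used here to describe the stretches of the mouse genome in which almost every CpG read as methylated. The autosomes were divided into 1-kb tiles counted from base 1, and strands were combined at each CpG. A tile was measured when at least 10 of its CpG positions were listed over the 4 libraries together and each library had at least 20 reads there, which held for 239806 of the 2303509 tiles with any listed CpG. Of these, 18307 tiles (7.63%) had a pooled level of 95% or more and are called nearly fully methylated tiles. The level is the share of reads that read as methylated, so the level itself chose the tiles and its height in them is not a finding.

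The cells came from the hippocampus of Tmem119-tdTomato+/- mice 3 weeks after birth; the allele puts a red fluorescent protein under a gene typical of microglia. Fetal growth restriction (FGR) was represented by 2 libraries and the control condition by another 2, and both groups carried the reporter allele and were of the same age. How growth restriction was brought about and whether a library is 1 animal or a pool are not stated in the labels, so p-values measure only the spread between these libraries. The FGR libraries listed 7615146 and 13578464 cytosines with summed coverages of 49563150 and 91762720, and the control libraries listed 9335713 and 10023353 cytosines with 62202250 and 66971740. Autosomal levels were 74.8% and 75.7% in the FGR libraries and 76.1% and 76.5% in the control libraries. Within 1 kb of the annotated starts, P2ry12, a purinergic receptor gene of microglia, had levels of 3.39% and 2.04% in FGR and 0% and 4.44% in control libraries. The start of Cx3cr1, the microglial fractalkine receptor gene, had 1.85% and 2.30% in FGR and 8% and 0% in control libraries. The start of Rbfox3, a gene of neurons, had 93.3% and 83.3% in FGR and 84.6% and 79.2% in control libraries, and that of Cd3e, a gene of T cells, 87.7% and 76.9% in FGR and 82.5% and 76.4% in control libraries. The start of Gfap, an astrocyte gene, had 45.7% and 68.0% in FGR and 50% and 80% in control libraries, the last over 5 reads. That of Mog, an oligodendrocyte gene, had 100% and 47.6% in FGR and 33.3% and 43.8% in control libraries. The start of Cldn5, an endothelial gene, was low in all 4, with 35% and 20.2% in FGR and 32.3% and 9.68% in control libraries.

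In mammals, DNA methyltransferases place methyl groups on the cytosine of CpG dinucleotides, and Dnmt1 copies the mark after replication. Bodies of transcribed genes carry trimethylated H3K36, set by Setd2 behind RNA polymerase II, and the PWWP domains of Dnmt3a and Dnmt3b bind H3K36 methylation. CpG islands at promoters are mostly kept free of the mark, while the promoters of some germline genes are methylated in the tissues of the body. Methylated CpGs are lost over evolutionary time because methylcytosine deaminates to thymine.

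The sequences printed here contrast starts inside nearly fully methylated tiles with almost unmethylated starts of genes rich in such tiles. RefSeq promoter windows of 300 bases, 250 before and 50 after an annotated start, were taken from GRCm38.p6, the assembly of mm10, and 17 windows of 17 protein-coding genes lay wholly inside nearly fully methylated tiles. Of the 10 with the most CpG positions in their tile, the 3 with reads in all 4 libraries are printed, 5′ to 3′ on the strand of the gene with each CG in capitals. They are Chml, a gene for a Rab escort protein (chr1:175688304-175688603, minus strand), Rtn1, a reticulon gene (chr12:72235697-72235996, minus strand), and Uts2b, a gene for a urotensin peptide (chr16:27370190-27370489, minus strand). The Rtn1 start lay inside the gene, with its tile away from the annotated gene ends. The Chml tile also overlapped the gene Opn3.

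Chml: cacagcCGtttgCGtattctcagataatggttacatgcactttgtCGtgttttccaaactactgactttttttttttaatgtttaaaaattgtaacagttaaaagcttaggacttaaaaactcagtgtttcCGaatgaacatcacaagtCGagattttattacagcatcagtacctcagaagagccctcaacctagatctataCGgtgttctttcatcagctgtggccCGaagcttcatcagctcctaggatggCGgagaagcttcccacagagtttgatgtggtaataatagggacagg
Rtn1: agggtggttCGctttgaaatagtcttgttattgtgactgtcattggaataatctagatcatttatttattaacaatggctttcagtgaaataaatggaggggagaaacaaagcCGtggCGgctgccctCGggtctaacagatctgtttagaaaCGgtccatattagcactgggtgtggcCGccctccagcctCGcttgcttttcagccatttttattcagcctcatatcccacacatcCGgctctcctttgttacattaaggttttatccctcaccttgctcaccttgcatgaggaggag
Uts2b: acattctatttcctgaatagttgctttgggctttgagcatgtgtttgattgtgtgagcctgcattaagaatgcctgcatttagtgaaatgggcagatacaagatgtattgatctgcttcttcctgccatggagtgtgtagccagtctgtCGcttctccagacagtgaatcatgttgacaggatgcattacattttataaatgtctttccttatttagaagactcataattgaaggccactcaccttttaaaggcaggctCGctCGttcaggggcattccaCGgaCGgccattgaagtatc

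The Chml window held 8 CpGs and read 95% and 96.5% methylated in FGR libraries, over 20 and 113 reads, and 94.4% and 98.0% in control libraries, over 18 and 49 reads. The Uts2b window held 5 CpGs and read 100% and 95.2% in FGR libraries, over 5 and 42 reads, and 100% and 96.3% in control libraries, over 22 and 27 reads. The Rtn1 window also held 8 CpGs, but only 4 of them were listed in any library. It read 95% and 100% in FGR libraries, over 20 and 27 reads, and 100% and 83.3% in control libraries, over 5 and 6 reads.

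For comparison, a start of Maml3, the gene with the most nearly fully methylated tiles (chr3:52104957-52105256, minus strand), and one of Mphosph9, a gene with a high share of them (chr5:124327923-124328222, minus strand), are printed in the same way. Both are almost unmethylated starts, so the contrast in level was set by the choice. Some other starts of genes rich in such tiles had higher levels, given further below.

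Maml3: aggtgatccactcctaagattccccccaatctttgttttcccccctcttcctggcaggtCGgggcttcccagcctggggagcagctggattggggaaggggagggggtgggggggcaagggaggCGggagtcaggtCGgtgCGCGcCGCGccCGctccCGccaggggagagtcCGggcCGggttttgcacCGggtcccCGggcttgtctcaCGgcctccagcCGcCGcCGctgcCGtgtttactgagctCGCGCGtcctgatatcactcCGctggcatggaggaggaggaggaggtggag
Mphosph9: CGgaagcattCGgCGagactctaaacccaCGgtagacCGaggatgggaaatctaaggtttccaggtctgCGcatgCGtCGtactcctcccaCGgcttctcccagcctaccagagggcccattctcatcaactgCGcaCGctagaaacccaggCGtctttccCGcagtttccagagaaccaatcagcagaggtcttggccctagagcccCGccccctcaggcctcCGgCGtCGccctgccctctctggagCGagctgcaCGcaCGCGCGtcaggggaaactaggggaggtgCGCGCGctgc

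The Maml3 window held 22 CpGs, and within 500 bp of its start the level was 2.35% and 1.92% in FGR libraries and 0% and 0.901% in control libraries. The Mphosph9 window held 25 CpGs, with 1.37% and 0% in FGR libraries and 0% and 0% in control libraries. Both genes thus combine an almost unmethylated, CpG-rich start with nearly fully methylated tiles further inside.

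Over all 17 windows, the median number of CpGs was 5, against 16 in the 2800 windows that lay wholly in measured tiles. The median observed over expected CpG ratio, which corrects for base composition, was 0.308 against 0.699, and the median GC content was 48.7% against 57.0%. A ratio of 0.6 or more was found in 1 of the 17 windows (5.88%), against 61.1% of windows in measured tiles and 51.0% of all 18766 protein-coding windows. Motifs were searched by their letters on both strands. The GC box GGGCGG stood in 2 of 17 windows (11.8%), against 51.2% of windows in measured tiles and 48.9% of all windows. The TATA box TATAAA stood in 3 of 17 (17.6%), against 10.8% and 12.3%, and the E-box CACGTG in 0 of 17, against 11.1% and 8.11%. A match is only a run of letters, and no sequence of the tiles themselves was at hand. The other named windows belonged to Timm8a2, a mitochondrial import gene, Rsc1a1, a regulator of solute carriers, Igsf23, an immunoglobulin superfamily gene, Olfr156, an olfactory receptor gene, C1qtnf3, a secreted C1q-like protein gene, Rpl37rt, a retroposed copy of a ribosomal protein gene, and Slc7a15, of an amino acid transporter family. Windows of these 7 genes had no read in at least 1 library. The tiles of Timm8a2 and Slc7a15 lay inside genes and away from annotated gene ends, as did that of Rtn1. Tiles of the other named windows lay at the end of a gene. Those of Rsc1a1 and Rpl37rt also overlapped the genes Ddi2 and Acads.

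Among the nearly fully methylated tiles, the level over all their reads was 96.3% in both FGR libraries and 96.4% in both control libraries. The reads numbered 901792 and 1479044 in FGR and 1093918 and 1172487 in control libraries, and a median tile had 43 and 73 reads in FGR and 53 and 57 in control libraries. Wilson 95% intervals reached from 96.27% to 96.35% and from 96.30% to 96.36% in FGR and from 96.38% to 96.45% and from 96.41% to 96.48% in control libraries. They express counting error alone, because copies of a molecule cannot be recognised in these tables and a read over several CpGs counts at each. Unmethylated reads made up 3.69% and 3.67% in FGR and 3.58% and 3.56% in control libraries. Both strands read 96.3% in the FGR libraries and 96.4% in the control libraries.

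The threshold has no gap in the data around it, as the histogram of tile levels shows. The 3 tiles just inside lay in Tbc1d8, Atg16l1 and 2700003A03Rik, all at 95%, and the 3 just outside lay near Btg1 (94.9904%), in Gm30382 (94.9891%) and near Igf1r (94.9891%). Another 46266 measured tiles had 90% to under 95%. The median pooled level of the chosen tiles was 96.2%, against 83.6% for all measured tiles.

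A pooled level leaves room for single libraries to differ. Of the 18307 tiles, 72.4% and 74.6% were at 95% or more in the FGR libraries and 74.8% and 74.95% in the control libraries, and 4659 (25.4%) were so in all 4. Every library was at 90% or more in 16623 tiles (90.8%). A library under 80% occurred in 17 tiles, and the lowest value was 70.8%. In 25 tiles no unmethylated read was seen in any library. Among them were tiles in Atg7, an autophagy enzyme gene, Sephs1, of selenium metabolism, Ubr3 and Ube3b, both ubiquitin ligase genes, Sympk, of mRNA 3′ end processing, and Chka, a choline kinase gene. One of them lay at an end of Irf7, a transcription factor gene of the interferon response (chromosome 7, 141263001 to 141264000), with 41 and 26 reads in FGR and 32 and 44 reads in control libraries. These 7 genes were picked from the 25 after their values were seen. Their tiles had from 20 reads in a library (Sympk, control replicate 1) to 68 (Ube3b, control replicate 2). Each library listed only part of their CpG positions, so a level of 100% rests on few reads there.

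Because the same reads chose and described the tiles, each library was also read in tiles chosen on the other 3 libraries alone. The FGR libraries then read 94.7% and 94.6%, in 19629 and 20835 tiles, and the control libraries 94.9% and 94.96%, in 19656 and 19414 tiles. The 3 choosing libraries were at 96.4% to 96.5% in the same tiles. A level of 95% or more recurred in 56.5% and 52.4% of the tiles in FGR and in 57.1% and 57.4% in control libraries, whereas 15.04% and 11.4% of all measured tiles reached it in FGR and 14.3% and 14.2% in control libraries. A level of 90% or more was seen for 87.4% and 88.6% of the chosen tiles in FGR and 88.2% and 89.2% in control libraries, against 32.5% and 29.6% of all measured tiles in FGR and 32.3% and 32.4% in control libraries. Under 80% lay 0.834% to 1.17% of the chosen tiles in the library read, against 37.2% to 38.9% of all measured tiles. High methylation of these tiles was therefore seen in a library that had no part in choosing them.

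**Figure D1:**
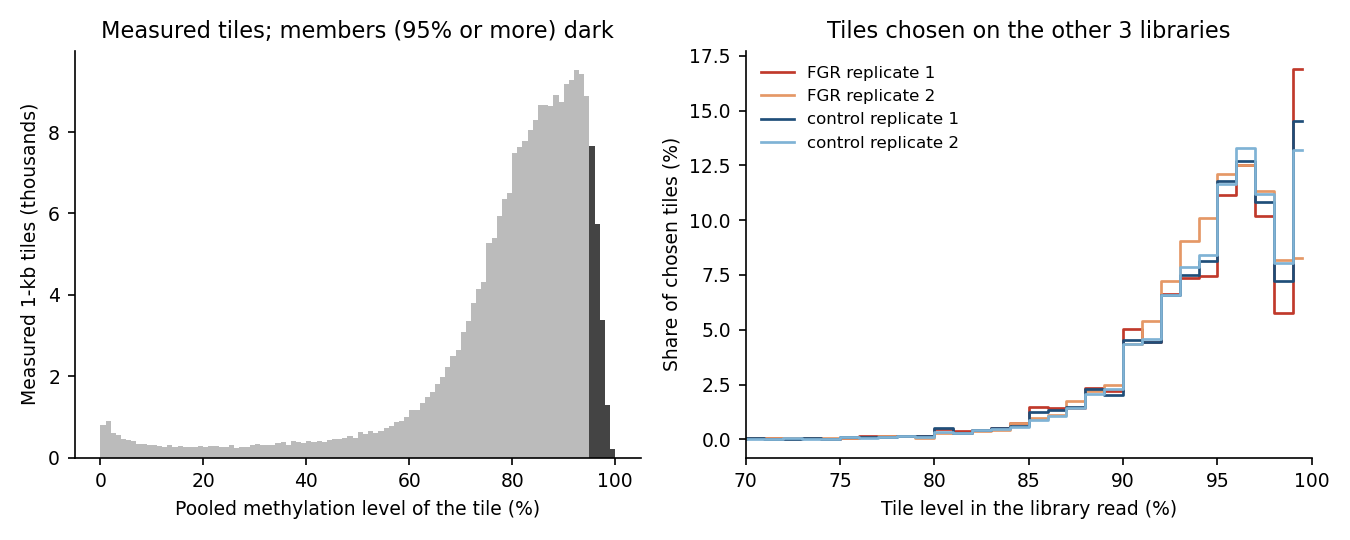
Left, number of measured 1-kb tiles (in units of 1000) by pooled methylation level (%), with the 18307 tiles at 95% or more in dark; right, share (%) of tiles chosen on the other 3 libraries by their level (%) in the library read, with 1 line per library. Between 52.4% and 57.4% of the chosen tiles lie at 95% or more in each library.

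Most single CpGs inside the tiles had only methylated reads. The same reads chose the tiles, so these shares and their contrast with all measured tiles are a description. The tiles held 273467 listed CpG positions, of which 34016 (12.4%) were listed in all 4 libraries. Of the CpGs listed in a library, 79.4% and 76.4% had only methylated reads in FGR and 79.2% and 78.8% in control libraries, against 42.7% and 39.8% in FGR and 43.3% and 43.1% in control libraries over all measured tiles. The median CpG had 6 reads, or 7 in FGR replicate 2, so a CpG with only methylated reads can still have a level well under 100%. A level of 50% or less was found for 0.226% and 0.206% of CpGs in FGR and 0.215% and 0.213% in control libraries, against 16.2% to 18.03% over all measured tiles.

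The rule leaves little room for CpGs of low level, since a tile with few CpGs and a level of 95% or more can hold hardly any, so the following values are a description. CpGs at 50% or less held 2.90% and 2.41% of the unmethylated reads of the tiles in FGR and 2.78% and 2.72% in control libraries, while over all measured tiles such CpGs held 53.8% and 51.4% in FGR and 50.7% and 49.6% in control libraries. Of 56080 CpGs in the tiles with at least 10 reads in each group, 5 were at 50% or less in FGR and 5 in control, and 0 in both. Among 706933 such CpGs of all measured tiles, 62321 were at 50% or less in both groups, which was 75.7% of those low in FGR and 75.8% of those low in control.

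Nearly fully methylated tiles lay mainly inside genes. Of the 18307 tiles, 13918 (76.0%) were in the body of a protein-coding or lncRNA gene, 1556 (8.50%) at a gene end, taken as 1500 bp outside to 500 bp inside, and 2833 (15.5%) between genes. Of all measured tiles, 55.5% were in bodies, 11.98% at ends and 32.5% between genes, and tiles at 90% to under 95% lay between the 2 sets, with 68.0%, 9.65% and 22.3%. Seen the other way, 10.5% of measured tiles in gene bodies were nearly fully methylated, against 5.41% at gene ends and 3.64% between genes. Chosen on 1 library alone, tiles at 95% or more were in gene bodies for 69.1% and 71.9% in FGR and 69.5% and 70.1% in control libraries, so the excess over 55.5% was present in each library. Between chromosomes the share of measured tiles varied little, from 6.62% on chromosome 3 to 8.65% on chromosome 13.

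The number of CpGs in a tile bore on this differently by position. In gene bodies, nearly fully methylated tiles made up 10.1% of measured tiles with 10 to 14 CpG positions and 17.7% (63 of 355) of those with 40 or more. Between genes these shares were 3.26% and 7.45%, the last resting on 7 of 94 tiles. At gene ends the order was opposite, with 6.60% at 10 to 14 positions and 0.380% (3 of 790) at 40 or more. These are counts of tiles, given without a test.

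The densest of these tiles had 52 to 76 CpG positions, and 8 of the 10 lay in gene bodies. The first lay in Zfp319, a zinc finger gene (chromosome 8, 95328001 to 95329000), with 76 CpG positions and 98.4% and 96.4% in FGR and 93.9% and 97.0% in control libraries. A tile in Scaf1, which encodes a splicing-related factor that binds RNA polymerase II (chromosome 7, 45007001 to 45008000), had 74 positions and 97.1% and 98.1% in FGR and 94.6% and 95.4% in control libraries. In Srrm2, a spliceosome component gene (chromosome 17, 23819001 to 23820000), a tile with 53 positions had 98.8% and 97.3% in FGR and 97.0% and 97.3% in control libraries. Tiles in Csnk1g2, a casein kinase gene, Gtf2ird2, of the TFII-I transcription factor family, Dyrk3, a kinase gene, Plec, Gm46375 and, between genes, near Rnf223 and Def8 completed the 10, and their library values lay between 92.7% and 99.3%. Positions are counted over the 4 libraries together, and each library listed only part of them. In the tiles of Zfp319 and Scaf1, FGR replicate 1 had only 63 and 35 reads, over 12 and 7 CpGs. In the Srrm2 tile, FGR replicate 2 had 37 reads over 7 CpGs. In the Gm46375 tile, FGR replicate 1 had 20 reads over 4 CpGs.

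Most of the tiles stood alone at this resolution, since 16063 (87.7%) had no adjacent nearly fully methylated tile. The measured tiles are themselves scattered, because 10 CpG positions and 20 reads in every library were required. The longest runs had 6 tiles, and there were 2. One lay in Plec, the gene of the cytoskeletal linker plectin (chromosome 15, 76172001 to 76178000), with 247 CpG positions and levels of 98% and 97.49% in FGR and 97.2% and 97.9% in control libraries. The other lay in Zfp619, a zinc finger gene (chromosome 7, 39533001 to 39539000), with 136 positions and 96.8% and 98.1% in FGR and 97.8% and 97.3% in control libraries. Runs of 5 tiles lay in 2810021J22Rik and Gm12258 on chromosome 11 and in Gxylt1, a glycosyltransferase gene, on chromosome 15, and a run of 4 tiles with 92 positions in Slc38a1, a glutamine transporter gene on chromosome 15.

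The tiles also stood in well-methylated surroundings. Adjacent tiles that were not themselves nearly fully methylated had 86.1% and 87.0% in FGR and 87.3% and 87.8% in control libraries. Beside all measured tiles the same neighbours had 75.2% and 76.7% in FGR and 76.9% and 77.6% in control libraries. At 20 kb the levels had come down to 79.1% and 81.0% in FGR and 81.3% and 82.1% in control libraries, still above the 76.4% and 77.5% in FGR and 77.9% and 78.4% in control libraries found at 20 kb from all measured tiles. Where the adjacent tile was measured, it was itself nearly fully methylated in 27.7% of cases (2368 of 8544), against 8.38% beside all measured tiles, and at 20 kb these shares were 17.9% and 9.10%. Adjacent tiles can share reads and lie in the same gene, so these are descriptions of each library.

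**Figure D2:**
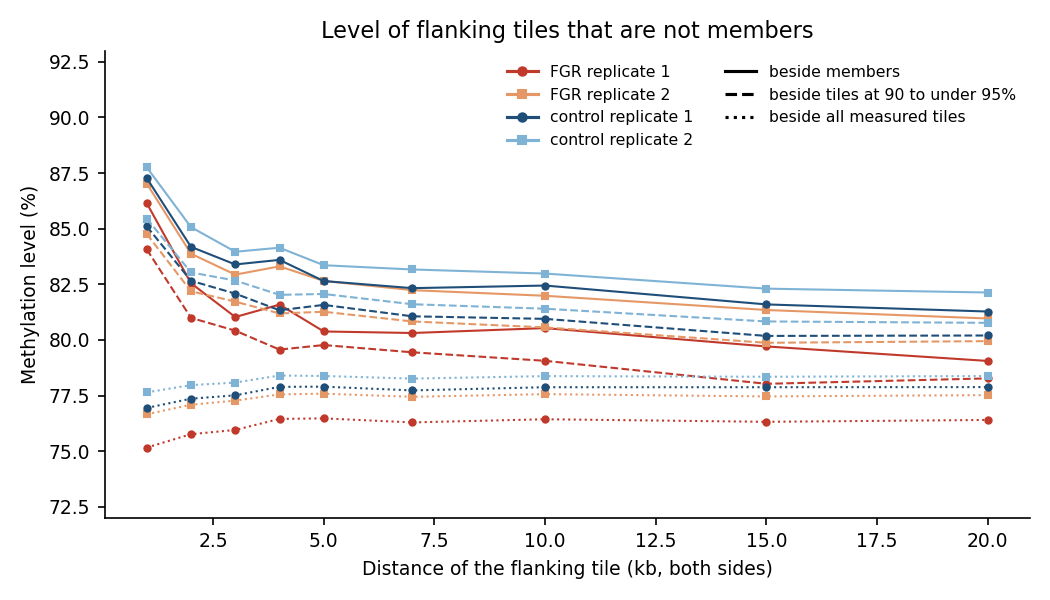
Methylation level (%) of tiles outside the nearly fully methylated set by distance (kb), with 1 colour per library. Distance is from nearly fully methylated tiles (solid), tiles at 90 to under 95% (dashed) and all measured tiles (dotted). Tiles that were not measured are included. In each library the solid line starts between 86.1% and 87.8% at 1 kb and stays above the dotted line out to 20 kb.

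Along genes the tiles were rarest just before the start and most frequent towards the end. In 10549 protein-coding genes of at least 10 kb, each split into 10 equal bins, 0.534% of measured tiles in the 1 kb before the start were nearly fully methylated (14 of 2620). The share was 5.41% in bin 1, 10.4% in bin 2 and 13.2% in bin 8 (1367 of 10365), and it was 11.1% in bin 10 and 10.5% in the 1 kb after the end. At 5 kb before the start it was 7.36%, and at 5 kb after the end 8.26%. Each library alone had the same shape: in bin 8, 22.1% and 17.9% of measured tiles were at 95% or more in FGR and 21.4% and 21.5% in control libraries, while in the 1 kb before the start the shares were 2.98% and 1.76% in FGR and 3.17% and 2.86% in control libraries. FGR replicate 2, the deepest library, had the lowest share in every bin, and the part of depth in this order was not tested.

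**Figure D3:**
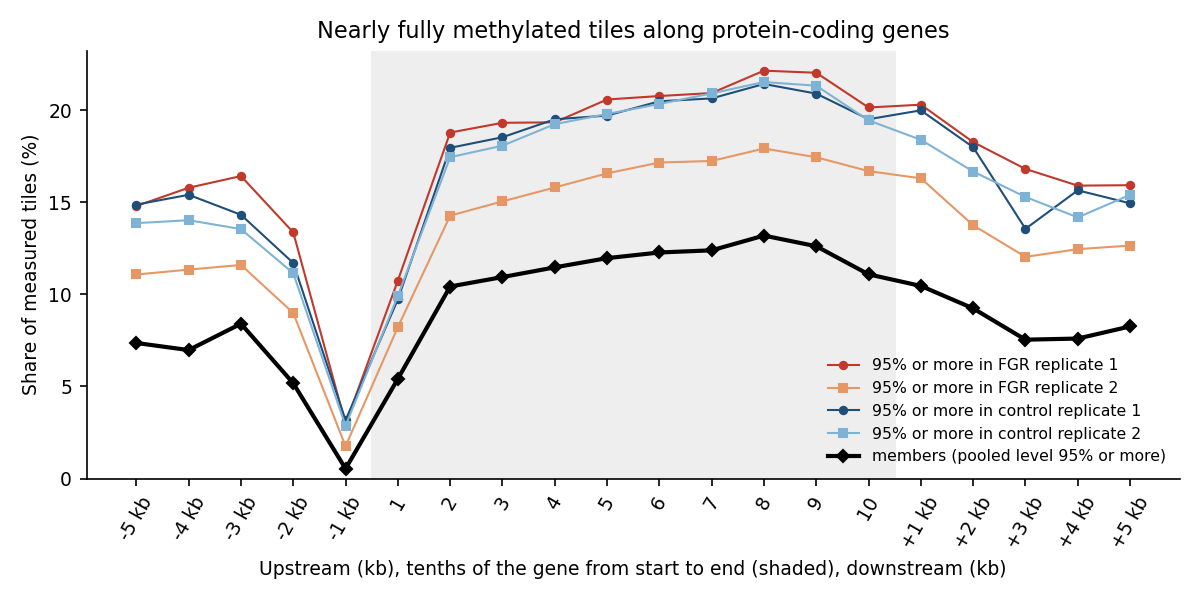
Share (%) of measured tiles at 95% or more, by position from 5 kb before to 5 kb after protein-coding genes of at least 10 kb, with the gene (shaded) split into 10 equal bins from start to end; coloured lines are single libraries and black is the pooled level. The black line drops to 0.534% in the 1 kb before the start and peaks at 13.2% in bin 8.

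By distance to the nearest annotated start, 1.88% of measured tiles within 0.5 kb were nearly fully methylated, 5.13% at 1 to 2 kb and 9.30% at 5 to 10 kb, and 6.20% beyond 50 kb. The median distance was 23740 bp, against 26465 bp for all measured tiles.

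The genes with the most such tiles were long genes. Maml3, a coactivator of Notch signalling, had 49 among 137 measured tiles, Tiam1, an activator of the GTPase Rac, 48 of 138, and Foxp1, a forkhead transcription factor, 46 of 156. Wwox, an oxidoreductase gene known as a tumour suppressor, had 41 of 291, Arl15, a small GTPase gene, 39 of 139, and Fto, an RNA demethylase gene, 37 of 112. Smyd3, a lysine methyltransferase gene, had 34 of 156, Dock1, an activator of Rac in the engulfment of dying cells, 31 of 96, and Tcf4, a bHLH transcription factor gene, 31 of 116. As a share the order differed, with 14.1% of the measured tiles in Wwox and 35.8% in Maml3.

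Taken as a share among genes with at least 20 measured tiles, Lifr came first with 32 of 44 (72.7%). Lifr encodes the receptor of leukemia inhibitory factor, a cytokine that signals through Stat3. Over all 44 measured tiles of Lifr the level was 93.4% and 92.8% in FGR and 94.2% and 94.0% in control libraries. All 20 measured tiles from 71.9 kb after the gene start to the gene's end were nearly fully methylated, with library values between 85% and 100%. The 5 measured tiles in the 20 kb after the end had pooled levels of 74.2% to 85.2%. The measured tile nearest the annotated gene start had 51.7% and 43.8% in FGR and 83.9% and 10% in control libraries, and 1 tile at 46.9 kb had 55% and 73.3% in FGR and 97.1% and 50% in control libraries. RefSeq also places starts inside the gene. Within 500 bp of a start with 53 CpGs in its window, FGR libraries had 20% and 2.41%, over 5 and 83 reads, and control libraries had no reads. Within 500 bp of another start the level was 21.4% and 79.1% in FGR and 47.2% and 16.7% in control libraries.

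**Figure D4:**
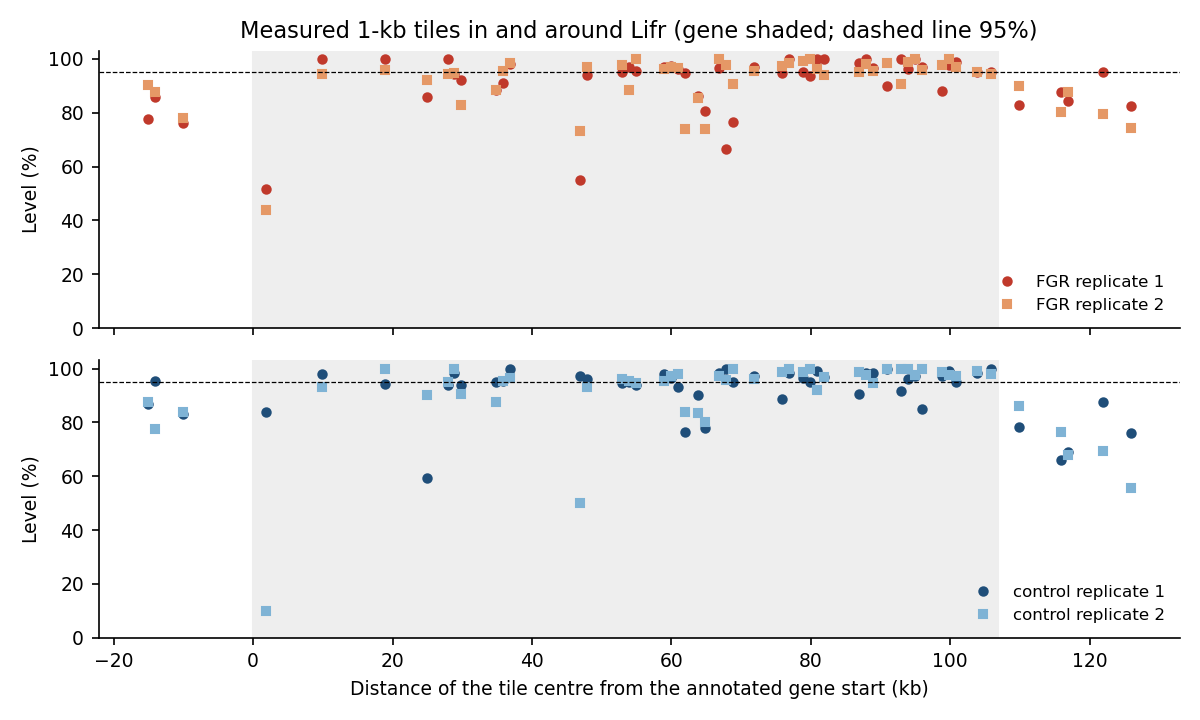
Methylation level (%) of each measured 1-kb tile in Lifr and 20 kb to each side by distance (kb) of the tile centre from the annotated gene start, FGR libraries above and control libraries below, with the gene shaded and 95% dashed. Of the 44 tiles in the gene, 32 have a pooled level of 95% or more, and the tiles beyond its end lie lower.

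Cep57l1, a centrosomal protein gene, followed with 17 of 24 tiles (70.8%), Plxnc1, a semaphorin receptor gene, with 14 of 29 (48.3%), and Ipo11, an importin gene, with 11 of 23 (47.8%). Mphosph9 had 10 of 21 (47.6%) and E2f7, a repressor of cell cycle genes, 11 of 24 (45.8%). Strn, the striatin gene, had 10 of 22 (45.5%), and Cit, a kinase gene of cytokinesis, and Ppa2, a mitochondrial pyrophosphatase gene, had 27 of 60 and 9 of 20 (45% each). Against these, all protein-coding genes together had 10.4%. Starts of these genes with reads in all 4 libraries were mixed. At Fto the level within 500 bp of the start was 0% and 4.21% in FGR and 0% in both control libraries, at Ipo11 6.12% and 25% in FGR and 6% and 0% in control libraries, and at a start of Tiam1 90% and 74.3% in FGR and 87.8% and 91.7% in control libraries. Another start of Tiam1 had 12.8% and 43.8% in FGR and 29.4% and 20% in control libraries. A start of Foxp1 had 51.0% and 61% in FGR and 33.9% and 78% in control libraries. One of Cep57l1 had 0% and 4.55% in FGR and 11.9% and 0% in control libraries. A start of Ppa2 had 71.4% and 0% in FGR and 56% and 16% in control libraries, so libraries of the same group lay far apart there. This stretch overlaps a nearly fully methylated tile near Ppa2, in which FGR replicate 2 read 100%. The libraries list different CpGs, and whether they differed at the same CpGs was not tested.

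Gene lists differed widely in how many of their measured tiles were nearly fully methylated. Over all protein-coding genes the share was 10.4% (14383 of 138939), and 5273 of 15776 measured genes (33.4%) had at least 1 such tile. The lists were drawn up with earlier results of these data known, so their order is a description.

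Among 29 measured genes that are transcribed in every cell type, 19 had such a tile, and 58 of 313 tiles were nearly fully methylated (18.5%). In each library alone, 26.5% and 28.1% of the tiles of this list were at 95% or more in FGR and 29.7% and 30.03% in control libraries, against 18.5% and 14.7% in FGR and 17.7% and 17.6% in control libraries over all protein-coding genes. The list was led by Trrap, a scaffold of histone acetyltransferase complexes, with 11 of 38 tiles, Plec with 9 of 13 and Dync1h1, the dynein heavy chain gene, with 6 of 27.

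Genes of the methylation machinery itself had 39 of 205 tiles (19.02%) in 15 of 22 measured genes. Dnmt1, the maintenance methyltransferase gene, had 7 of 17, Nsd3, a gene for an H3K36 methyltransferase, 6 of 20 and Setd2 4 of 11. Zfp zinc finger genes, many of which encode repressors of transposable elements, had 346 of 1814 (19.07%) in 144 of 317 genes, led by Zfp407 with 24 of 83, Zfp827 with 12 of 50 and Zfp704 with 11 of 50. For the zinc finger list the shares at 95% or more were 25.9% and 22.1% in FGR and 23.3% and 26.0% in control libraries, and for the machinery 28.3% and 24.9% in FGR and 28.3% and 26.8% in control libraries.

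Homeostatic microglia genes had 18 of 145 tiles (12.4%), close to all protein-coding genes, but 16 of the 18 lay in Runx1, a transcription factor gene of blood and microglial development, and the other 2 in P2ry12, with 1 of 7, and Mertk, an engulfment receptor gene, with 1 of 12. Thus 18 of the 21 measured genes of this list had none. Endothelial and pericyte genes had 15 of 153 (9.80%), with 5 of 11 in Pecam1, 4 of 37 in Flt1 and 2 of 10 in Pdgfrb. Astrocyte genes had 7 of 132 (5.30%), in Slc4a4 and Slc1a3, lymphocyte genes 2 of 57 (3.51%), in Cd4 and Ms4a1, and oligodendrocyte lineage genes 2 of 83 (2.41%), in Cnp and Mbp. Imprinted genes had 12 of 255 (4.71%), led by Inpp5f with 3 of 18, Impact with 2 of 5 and Rasgrf1 with 2 of 9.

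Neuronal genes had few such tiles. Only 1 of their 417 measured tiles was nearly fully methylated (0.240%), in the calcium channel gene Cacna1a, and the median level of the 417 tiles was 78.8% and 77.8% in FGR and 79.4% and 78.7% in control libraries. Over all protein-coding genes the median was higher, with 85.7% in both FGR libraries and 86.1% and 86.3% in control libraries. A level of 95% or more in single libraries occurred in 6.71% and 4.796% of these tiles in FGR and 3.36% and 3.597% in control libraries. Clustered protocadherins, cell surface genes by which neurons tell themselves apart, had 0 of 1113 tiles, and the median level of their tiles was 51.7% and 51.2% in FGR and 52% and 54.1% in control libraries. Their tiles reached 95% in single libraries in 4.22% and 1.62% of cases in FGR and 0.0898% and 0.629% in control libraries. Many of these tiles lie side by side, and no difference between FGR and control was tested for any list.

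In the other lists few or none of the tiles were nearly fully methylated. Developmental transcription factors had 0 of 197 tiles, with median levels of 23.9% and 24.4% in FGR and 27.7% and 22.2% in control libraries. Keratin genes had 0 of 110, vomeronasal receptors 0 of 49 and olfactory receptors 2 of 156 (1.282%), in Olfr156 and Olfr287, and the median levels of these 3 lists lay between 76% and 82%. Germline genes, which include targets of promoter methylation, had 4 of 245 (1.63%), among them 1 each in Stk31, Pnldc1 and Brdt. Ribosomal protein genes had 1 of 119 (0.840%), in Rpl19, and their median levels were 28.8% and 21.1% in FGR and 28.6% and 32.8% in control libraries.

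**Figure D5:**
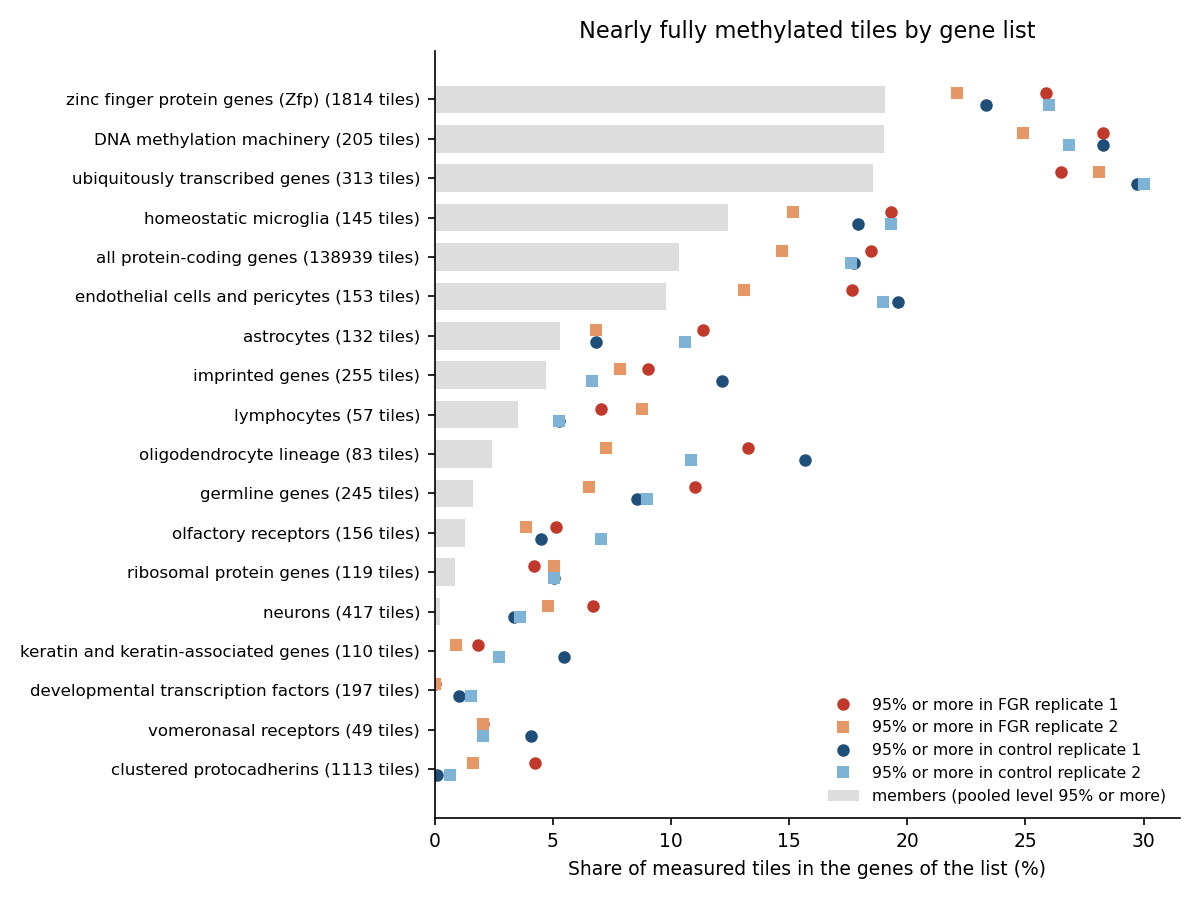
Share (%) of the measured 1-kb tiles of each gene list that were nearly fully methylated (bars) and that were at 95% or more in single libraries (markers), with the number of tiles in brackets. Zinc finger, methylation machinery and ubiquitously transcribed genes stand at 18.5% to 19.07%, all protein-coding genes at 10.4%, and clustered protocadherins at 0.

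Between FGR and control, the level over the nearly fully methylated tiles differed little. It was 96.3 ± 0.0119% in FGR and 96.4 ± 0.0208% in control libraries (SD, n = 2 each), a difference of -0.112 percentage points, and both FGR libraries lay below both control libraries. Within a group the gap was 0.0168 points in FGR and 0.0294 points in control. Over all measured tiles the levels were 77.5 ± 0.717% in FGR and 78.6 ± 0.381% in control, a difference of -1.09 points, and over tiles at 90% to under 95% the difference was -0.162 points. The rule leaves less room for a difference close to 100%, and the pooled level used the same libraries, so no test is given here. Read in tiles chosen without the library, the level was 94.6 ± 0.118% in FGR and 94.9 ± 0.0748% in control, a difference of -0.263 points. A two-sided exact permutation test over the 6 assignments gave p = 0.33, the smallest it can give, so it cannot reach 0.05.

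Tile by tile, none of the 18307 was called. The test was a quasi-binomial model with overdispersion moderated by limma and Benjamini-Hochberg adjustment over all 239806 measured tiles, with calls at an adjusted p under 0.05 where the groups differed by 10 points or more. It called 0 nearly fully methylated tiles, where the background was 3 of all measured tiles (0.00125%). Of these 3, 2 were higher in FGR (0.000834%) and 1 lower (0.000417%), none of them nearly fully methylated. The smallest adjusted p among the 18307 was 0.606 by the limma-moderated model. An unadjusted p under 0.05 was found for 271 of them (1.48%), against 5.07% of all measured tiles, and limma on log2 ratios called 0 tiles and gave 347 nearly fully methylated tiles an unadjusted p under 0.05. The rule itself bounds the difference. With the reads of each group summed, the pooled threshold lets FGR lie at most 9.71 points lower at the median tile. The differences given here compare means of library levels, which can exceed this bound. A difference of 10 points or more was found in 32 tiles.

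The direction was close to even. Of the 18307 tiles, 9416 (51.4%) were lower in FGR, against 52.1% of all measured tiles, and the median difference was -0.105 points, against -0.315 points. The FGR and control libraries did not overlap in 5861 tiles (32.0%), against a background of 33.2%. Both FGR libraries were lower in 3115 (17.0%), against 17.9%, and higher in 2746 (15%), against 15.3%. These shares lay near those of all measured tiles.

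The tiles with the smallest p are given with their library values, and none passed the adjustment. The lower side was led by a tile in Gm33742 (chromosome 11, 86850001 to 86851000), with 85.7% and 88.9% in FGR and 100% and 100% in control libraries. The difference was -12.7 points, with an adjusted p of 0.606 from the limma-moderated model, and FGR replicate 1 had 21 reads there. A tile in Dgkh, a diacylglycerol kinase gene (chromosome 14, 78574001 to 78575000), had 90.2% and 89.7% in FGR and 100% and 99.2% in control libraries. Tiles in Atxn7 and Supt3, both genes of the SAGA coactivator complex, had 92.1% and 89.3%, and 90.9% and 87.5%, in FGR, against 100% and 100%, and 100% and 98.9%, in control libraries. The tile in Pcid2, a gene of mRNA export, had 94% and 88.9% in FGR and 100% and 100% in control libraries.

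The higher side was led by a tile in Rcor1, the gene of a corepressor that works with REST (chromosome 12, 111058001 to 111059000), with 100% and 100% in FGR and 92.1% and 88.9% in control libraries. Its adjusted p was 0.675 in the limma-moderated model. A tile in Mad1l1, a spindle checkpoint gene (chromosome 5, 140236001 to 140237000), had 100% and 99.2% in FGR and 94.4% and 84.3% in control libraries. Tiles near Map4k4, a kinase gene, and near Ppa2, 59 bp outside the gene, had 100% and 100%, and 99.03% and 100%, in FGR, against 88% and 93.5%, and 82.5% and 96.4%, in control libraries. A tile in Wwox had 100% and 100% in FGR and 91.1% and 95.1% in control libraries. In these 10 tiles the libraries of the group with the higher level lay between 98.9% and 100%.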

How the data were processed

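Hippocampal microglia of 2 FGR and 2 control libraries were profiled by whole-genome bisulfite sequencing. Per the submitters' processing notes, the tools were Trim Galore 0.6.5, methylKit 1.28.0 and Bismark (version not given in the sources used here), with the build mm10. The deposited tables give, per the file headers, each CpG cytosine's coverage, a count of reads on its strand, and the percent of C and of T among its reads. Coverage times percent gave whole methylated reads within 0.02 reads for 100% of cytosines. The lowest deposited coverage was 5, so which CpGs are listed depends on depth.

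From these, strands were summed per CpG and reads per 1-kb tile of the autosomes. The level is methylated over all reads. RefSeq (GRCm38.p6) gave 33069 autosomal protein-coding and lncRNA genes and the promoter windows that place gene starts; windows of chromosome 18 were not used here. Tiles were tested with a quasi-binomial model moderated by coverage with squeezeVar (limma 3.58.1), adjusted by the Benjamini-Hochberg method over all measured tiles. The test was also run on simulated data. The falls simulated there were larger than any difference in the nearly fully methylated tiles, so its power for these tiles was not tested. The labels number the replicates but do not say that equal numbers mark a shared litter or day.

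The tiles, the gene lists and the tests were chosen with earlier results of these data known. Named are the 10 tiles with the most CpG positions, the 5 longest runs, 3 tiles on each side of the threshold, 10 promoter windows, the 5 smallest p in each direction, 10 genes each by number and share of tiles, and up to 3 genes per list; 1 item is not reported here. Alternatives changed the threshold, the tile start, the filters, the libraries, the gene types and the test.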

Additional observations from a re-analysis of the deposited data

How the results depend on the processing

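The number of nearly fully methylated tiles depended on the thresholds: 64573 tiles (26.9%) passed at 90%, 2910 (1.21%) at the stricter threshold, 7660 with 15 or more and 28530 with 3 or more CpG positions, 29428 with 10 and 5327 with 40 reads in every library, and 509 with CpGs of 10 or more reads. Leaving out 1 library gave 19487 to 26010 tiles. The gene body share was 70.3% at a threshold of 90% (ends 9.33%, between genes 20.4%) and 74.2% with protein-coding genes only (5.12%, 20.7%). With protein-coding genes only, all measured tiles had 51.2% in bodies, 7.67% at ends and 41.2% between genes. Leaving out 1 library gave 74.6% to 75.2% in bodies and 16.0% to 16.7% between genes. Chosen on 1 library alone, an alternative added after the data were seen, bodies held 69.1% and 71.9% in FGR and 69.5% and 70.1% in control libraries, ends 9.16% and 9.26% in FGR and 9.30% and 9.14% in control libraries, and between genes lay 21.8% and 18.9% in FGR and 21.2% and 20.7% in control libraries. With 15 or more CpG positions 8.92% were at gene ends, against 16.3% of all measured tiles with as many positions. The adjacent tiles had a mean level of 87.1%, against 83.9% for tiles at 2 kb and 83.9% at a threshold of 90%; without 1 library it was 86.3% to 86.8%. The share of CpGs with only methylated reads was 68.1% for CpGs of 10 or more reads and 67.7% for CpGs listed on both strands, where more reads stand behind each CpG.

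The difference of FGR minus control stayed negative in each setting tried, from -0.263 to -0.0114 points. No nearly fully methylated tile was called in any setting. The rule bounds the difference in these tiles, and only 32 of them differed by 10 points or more. Few could therefore be called where that minimum was kept, and without a minimum difference 0 were called as well. Of all measured tiles, 3 were called, 0 with limma, 1 without the CpGs of highest coverage and 0 to 1 without 1 library. With a replicate block 0 were called, and a block leaves the difference of group means, -0.112 points, unchanged by construction. Tile by tile, the gap between replicates in FGR and that in control had a correlation of 0.000493 over measured tiles. Counting error in single tiles can hide a shared shift, so this cannot show whether equal numbers mark a shared litter or day. The autosomal level was lower in replicate 1 than in replicate 2 in both groups. A tile rests on 2 libraries a group and a median of 43 to 73 reads in each library. In the tile with the smallest p, in Gm33742, a difference of -12.7 points had an adjusted p of 0.606 (limma-moderated model).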
